A study of Mus musculus with 30 samples.

Results

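The genes that build cholesterol and fatty acids were followed as a module of 28 genes in the mouse colon. The members were the rows of the count table whose symbol equals a name on a given list, 28 of the 31023 genes in the table. Each name matched 1 row. The cholesterol branch held 21 members. They were 18 enzymes in the order of the pathway (Acat2, Hmgcs1, Mvk, Pmvk, Mvd, Idi1, Fdps, Fdft1, Sqle, Lss, Cyp51, Tm7sf2, Msmo1, Nsdhl, Hsd17b7, Ebp, Sc5d and Dhcr7) and 3 genes of sterol sensing and transport (Insig1, Srebf2 and Stard4). The fatty acid branch held 7, the regulator Srebf1 and the enzymes Acly, Acaca, Fasn, Scd1, Scd2 and Elovl6. All 28 passed the filter on low counts.

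RNA came from whole colon of male C57BL/6 mice, either wild-type (WT) or with both copies of Smox deleted (Smox-/-, called Smox below), house-bred, age-matched at 8 to 12 weeks and sampled after 56 days, with 3 mice per group. Smox encodes spermine oxidase, which turns the polyamine spermine into spermidine. In each genotype, 3 libraries were from untreated mice, 3 from mice given spermidine (14 mM in the drinking water for 56 days), 3 from non-tumor colon after AOM-DSS and 3 from non-tumor colon after AOM-DSS together with spermidine. AOM-DSS was the carcinogen azoxymethane, 12.5 mg/kg into the peritoneum, and then the gut irritant dextran sulfate sodium at 4% in 3 cycles, each lasting 5 days and starting on days 5, 26 and 47. Of the tumors, 3 libraries came from WT mice on AOM-DSS plus spermidine and 3 from Smox mice on AOM-DSS alone, so genotype and spermidine cannot be told apart between the tumor groups. The converse tumors (WT without spermidine, Smox with it) were not analysed here. Which part of Smox was removed is not in the labels, nor is whether tumor and non-tumor tissue came from 1 mouse.

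Libraries held 33060607 to 81011304 counts. Smox RNA was still read in libraries labelled Smox, at 18.6 to 68.7 CPM (counts scaled to library depth, with TMM scaling between libraries), against 25.1 to 169 CPM in WT libraries, with overlap, so its level alone does not check the genotype labels. It was lower in libraries labelled Smox in the tumors, where spermidine differed too (log2 -1.30 ± 0.24, adjusted p = 0.0357). With spermidine it was 48.8, 49.4 and 43.7 CPM in WT libraries and 18.6, 26.6 and 22.8 CPM in those labelled Smox, without overlap, and did not pass the test (log2 -1.06 ± 0.24, adjusted p = 0.153), and in untreated colon it was not lower. Markers of epithelium summed to 10740 to 20680 CPM per library. WT untreated replicate 3 stood apart, with skeletal muscle genes at 8658 CPM in sum and distal hindgut Hox genes at 11.8 CPM, where the other WT untreated libraries had 29.4 and 36.7 CPM and 673 and 737 CPM. Smox spermidine replicate 1 had 1436 CPM of the skeletal muscle genes. Wnt target genes, which are high in the tumors, summed to 952 CPM in Smox AOM-DSS spermidine non-tumor replicate 1 (the Wnt-high Smox library) and to 328 CPM in WT AOM-DSS non-tumor replicate 1, while Smox tumor replicate 3 had 256 CPM. Adipocyte genes stayed at 10.5 to 136 CPM in sum, and Adipoq and Plin1 were each at 0 in 15 of the 30 libraries. Sebaceous gland genes stayed at or below 72.4 CPM. In whole tissue, fewer cells of a type and less RNA per cell cannot be told apart.

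As background, cells make cholesterol from acetyl-CoA through mevalonate, isoprenoid units and squalene, and then close and trim the sterol ring. The transcription factor SREBP-2, the product of Srebf2, is held in the endoplasmic reticulum by SCAP and INSIG proteins while sterols are plentiful. When sterols fall, it is cut free and switches on the enzymes of the whole route, together with Insig1, a brake on the same circuit, and Stard4, which carries cholesterol between membranes. SREBP-1, from Srebf1, does the like for fatty acid genes, and Srebf1 is itself raised by the oxysterol receptors LXR. The colon lining renews itself throughout life, and dividing cells need both kinds of lipid for new membranes.

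Promoter sequences show what members of the cholesterol branch have in common besides the pathway. RefSeq (GRCm38.p6) gave a promoter for 22 members, 17 of the cholesterol and 5 of the fatty acid branch, and none was used for Fdft1, Fdps, Sqle, Stard4, Scd1 and Scd2. The 250 bases before the RefSeq start were searched on both strands, with motif forms that were chosen after the sequences had been seen. For Msmo1 and Srebf2 this window lies partly inside the gene as GENCODE places it, with starts at 64733792 and 82147181. In Msmo1 this holds for most of the window and for every site marked below. In Srebf2 the marked sites lie before the GENCODE start. The promoters of Hmgcs1 (chr13:119690101-119690350, plus strand), the entry to the mevalonate route, Msmo1 (chr8:64733579-64733828, minus strand), a sterol ring demethylase, and Srebf2 (chr15:82147019-82147268, plus strand), the regulator, are shown because they hold TCACNCCA, the core of a sterol regulatory element. Fasn (chr11:120824548-120824797, minus strand), fatty acid synthase, is shown as the fatty acid gene that the results below turn on. The sequences run 5′ to 3′ along the gene's strand, and capitals mark TCACNCCA and CCAAT on either strand, the latter reading ATTGG on the other strand. In Fasn a pair of CCAAT matches overlap.
Hmgcs1: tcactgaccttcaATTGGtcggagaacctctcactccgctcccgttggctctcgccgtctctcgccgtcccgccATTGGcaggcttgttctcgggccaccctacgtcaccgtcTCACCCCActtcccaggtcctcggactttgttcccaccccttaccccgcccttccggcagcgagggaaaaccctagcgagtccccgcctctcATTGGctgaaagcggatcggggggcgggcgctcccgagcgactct
Msmo1: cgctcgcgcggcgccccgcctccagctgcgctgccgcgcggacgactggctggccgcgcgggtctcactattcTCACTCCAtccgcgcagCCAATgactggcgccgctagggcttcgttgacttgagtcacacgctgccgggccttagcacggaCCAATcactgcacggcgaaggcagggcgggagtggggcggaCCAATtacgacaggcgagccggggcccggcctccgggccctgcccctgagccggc
Srebf2: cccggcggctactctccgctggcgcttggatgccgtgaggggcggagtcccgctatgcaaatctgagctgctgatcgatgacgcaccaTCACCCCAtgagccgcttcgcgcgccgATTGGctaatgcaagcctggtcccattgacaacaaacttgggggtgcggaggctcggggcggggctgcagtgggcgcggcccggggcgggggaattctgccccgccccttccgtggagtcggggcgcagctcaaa
Fasn: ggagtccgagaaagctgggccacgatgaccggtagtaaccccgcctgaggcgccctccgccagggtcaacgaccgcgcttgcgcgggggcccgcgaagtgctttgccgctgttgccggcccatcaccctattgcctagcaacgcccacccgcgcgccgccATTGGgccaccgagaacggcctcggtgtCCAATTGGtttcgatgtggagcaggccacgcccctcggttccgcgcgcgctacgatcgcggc

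CCAAT, the box bound by NF-Y, was found in 16 of the 17 cholesterol promoters (94.1%) and in 2 of the 5 fatty acid promoters (Srebf1 and Fasn), where 37.5% of 27025 genes with a promoter had it. The GC box GGGCGG was in 16 of 17 and in 2 of 5 (Srebf1 and Acly), against 35.4% of those genes. Acat2 alone among the 17 lacked CCAAT and Pmvk alone lacked GGGCGG. TCACNCCA was found in 3 of 17, against 4.20%, and in none of the 5. The E-box CACGTG was in 4 of 17 (Hsd17b7, Sc5d, Dhcr7 and Insig1), against 6.86%. A match is a description of these letters and not evidence that a factor binds there. Nor is the lack of an exact match evidence that none does. Because the motif forms were chosen after the sequences had been seen, the shares are no test of either branch.

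Per kilobase of exon, the level over the 30 libraries was highest for Scd2, a stearoyl-CoA desaturase, at a mean of 282 CPM per kb. Hmgcs1 followed with 98.5, Acly, which makes acetyl-CoA from citrate, with 76.7, Idi1, the isoprenoid isomerase, with 57.1, and Cyp51, the lanosterol demethylase, with 48.2 CPM per kb. The lowest were Tm7sf2, a sterol reductase, with 7.27, Lss, which closes the sterol ring, with 6.45, and Acaca, which makes malonyl-CoA, with 5.14 CPM per kb. The length used counts every annotated exon base, 10787 for Lss and 17074 for Acaca, so this order also depends on the annotation. Insig1 varied most, 9.18-fold between its lowest and highest library, and Srebf2 least, 2.03-fold.

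Across the 10 groups, the members were mostly highest in AOM-DSS non-tumor colon of WT mice and lowest in Smox mice given spermidine. The highest group mean lay in WT AOM-DSS spermidine non-tumor colon for 16 members and in WT AOM-DSS non-tumor colon for 7. The lowest lay in Smox spermidine colon for 17 and in WT tumors for 5, namely Acly, Dhcr7, Ebp, Sc5d and Stard4. Averaged over the 21 cholesterol genes, the mean log2 CPM was 6.52 ± 0.15 in WT and 6.68 ± 0.04 in Smox untreated colon (SD over libraries, n = 3 in this and every group). It was 6.52 ± 0.10 in WT and 6.23 ± 0.18 in Smox with spermidine, 7.05 ± 0.54 and 6.96 ± 0.16 in non-tumor colon of the AOM-DSS mice, and 7.16 ± 0.26 and 6.54 ± 0.02 where spermidine was added to that course. Tumors had 6.65 ± 0.24 in WT and 6.83 ± 0.27 in Smox. WT AOM-DSS non-tumor replicate 1, at 6.44, lay below both other libraries of its group (7.28 and 7.44) and among the untreated ones. Its epithelial markers summed to 11240 CPM where the other libraries of the group had 18240 and 18090, its proliferation genes to 878 CPM against 412 and 219, and its Wnt targets to 328 CPM against 53.9 and 59.8. Their part in its low value was not tested. The 7 fatty acid genes had 7.37 ± 0.35 in WT and 7.62 ± 0.03 in Smox untreated colon, 7.49 ± 0.21 and 7.18 ± 0.21 with spermidine, 7.88 ± 0.32 and 7.55 ± 0.15 in non-tumor colon of the AOM-DSS mice, 8.20 ± 0.11 and 7.48 ± 0.21 where spermidine was added, and 7.94 ± 0.18 and 7.91 ± 0.09 in tumors. In both tumor groups the fatty acid mean lay above that of untreated colon of either genotype.

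**Figure D1:**
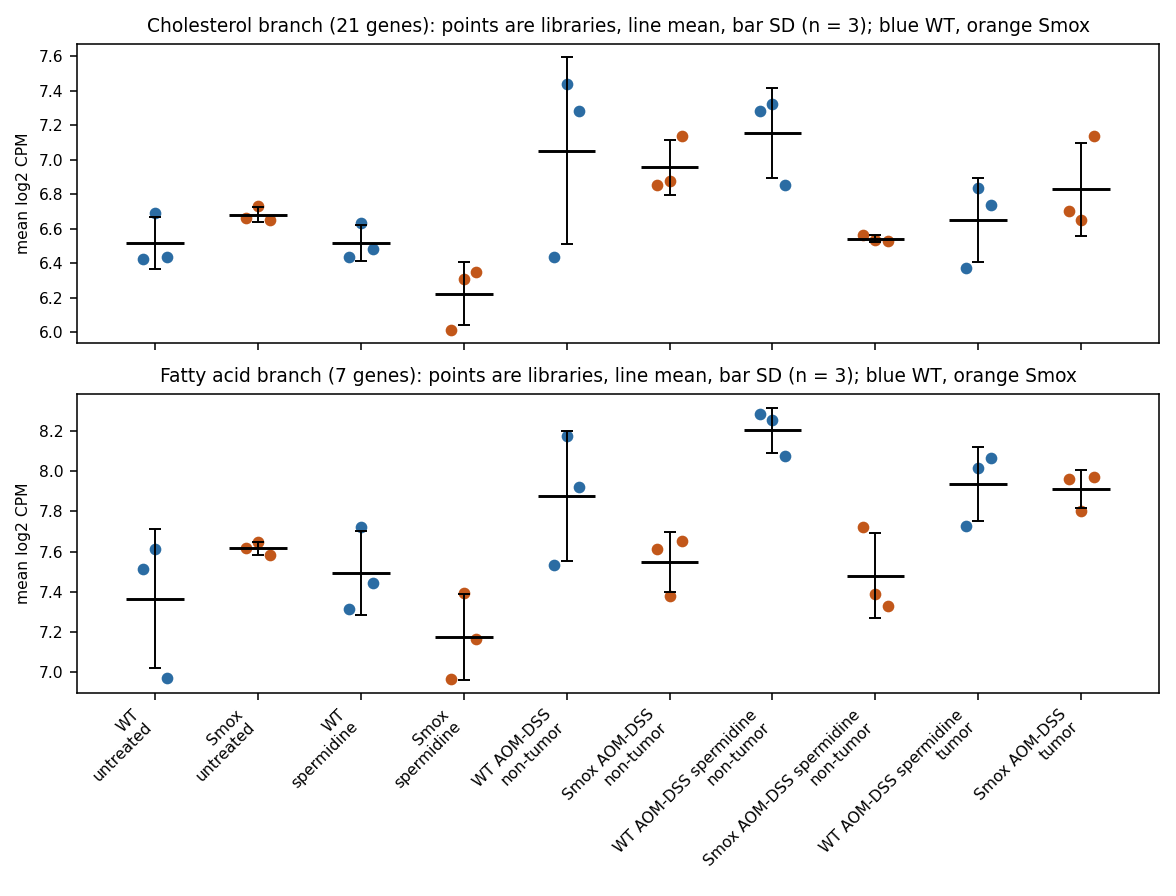
Mean log2 CPM of the 21 cholesterol genes (upper panel) and the 7 fatty acid genes (lower panel) in each library, by group (blue WT, orange Smox), with the group mean as a line and its SD as a bar (n = 3). The cholesterol branch lies lowest in Smox spermidine colon (6.23 ± 0.18) and highest in WT AOM-DSS spermidine non-tumor colon (7.16 ± 0.26), with 1 WT AOM-DSS library at 6.44.

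To see how the carcinogen and colitis course moved the module, non-tumor colon after AOM-DSS was compared with untreated colon of the same genotype. In WT mice all 21 cholesterol genes were higher, with a median log2 fold change of 0.63 where the median of all genes was 0. Of the 28 members, 8 rose (adjusted p under 0.05 over all genes tested) and none fell, where 6.44% of the 19558 genes tested were called in either direction and 1.76% rose. The 6 cholesterol genes were Acat2, Mvk, Mvd, Fdps, Sqle and Srebf2, and the 2 fatty acid genes Acaca and Fasn. By stage, 4 of the 8 enzymes up to squalene rose, 1 of the 10 after it and 1 of the 3 genes of sensing and transport. Between groups, 4 of the 21 cholesterol genes and 2 of the 7 fatty acid genes had every AOM-DSS library above every untreated one, as had 7.98% of all genes tested.

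Fdps, which joins isoprenoid units into farnesyl diphosphate, changed most among the enzymes. Its libraries were at 111, 138 and 113 CPM in untreated WT and at 150.0, 338 and 233 CPM after AOM-DSS, so that the lowest treated library lay above every untreated one. The fitted change was 1.99-fold (log2 0.99 ± 0.23, adjusted p = 0.0199), where the value after ± on the log2 scale is the SE, here and below. Mvd, the last step before the isoprenoid units, was at 47.7, 63.7 and 66.2 CPM and then at 63.1, 163 and 112 CPM, and the first treated library lay within the untreated range (1.90-fold higher, log2 0.93 ± 0.24, adjusted p = 0.0317). Sqle, squalene epoxidase, was at 113, 161 and 100.1 CPM and then 144, 248 and 263 CPM, again with 1 treated library inside the untreated range (1.75-fold higher, log2 0.81 ± 0.23, adjusted p = 0.0425). Srebf2, the regulator, was at 289, 284 and 210.4 CPM and then 361, 382 and 359 CPM, without overlap (1.41-fold higher, log2 0.49 ± 0.11, adjusted p = 0.0192). Acat2, which joins acetyl-CoA units, rose 1.75-fold (adjusted p = 0.041) and Mvk, mevalonate kinase, 1.62-fold (adjusted p = 0.0258). Hmgcs1, the most abundant cholesterol enzyme, did not pass the test (414, 491 and 535 CPM, then 335, 814 and 905 CPM, adjusted p = 0.222).

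In the fatty acid branch Fasn had 177, 209.6 and 123 CPM in untreated WT and 280.0, 366 and 282 CPM after AOM-DSS, with no overlap (1.82-fold higher, log2 0.87 ± 0.20, adjusted p = 0.0219). Acaca had 63.7, 84.7 and 43.5 CPM and then 94.6, 114 and 87.0 CPM, also without overlap (1.54-fold higher, log2 0.62 ± 0.17, adjusted p = 0.0393). Scd2 had 1406, 1692 and 530.4 CPM and then 1432, 3142 and 2384 CPM and Acly 560.5, 556 and 96.9 CPM and then 549, 484 and 474 CPM. Neither passed the test (Scd2 log2 0.94 ± 0.39, adjusted p = 0.135, Acly log2 0.31 ± 0.40, adjusted p = 0.677). In both, the lowest untreated library was replicate 3, the one with skeletal muscle RNA. That library also had distal hindgut Hox genes at 11.8 CPM. Its colonocyte genes were at 31590 CPM, against 10700 and 5877 CPM in replicates 1 and 2. The part of any of these in its values was not tested.

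The calls in WT rested on few libraries. Without WT untreated replicate 3, alone or together with the Wnt-high Smox library, or with only the compared groups in the fit, 0 members were called. With no filter on low counts 5 were, as were 1.86% of all genes. Leaving out other libraries gave 4 calls without WT untreated replicate 1, 10 without replicate 2, 18 without WT AOM-DSS replicate 1, 0 without its replicate 2 and 3 without its replicate 3, and no member was called in all 6 fits. The share of all genes called moved with these counts, to 7.07%, 9.68% and 0.0452% without untreated replicates 1, 2 and 3 and to 5.96%, 0.0797% and 2.4% without AOM-DSS replicates 1, 2 and 3. With only the compared groups it was 0%. Colonocyte genes summed to 5877 to 31590 CPM in untreated WT and to 2075 to 8549 CPM after AOM-DSS, and smooth muscle genes to 5453 to 8352 CPM and 384 to 2606 CPM. The part of either in the rise was not tested.

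The same course in Smox mice gave 19 of 21 cholesterol genes higher, with a median log2 change of 0.30, but no member was called by edgeR (0.0767% of all genes were) or by DESeq2, and 3 of the 28 had an unadjusted p under 0.05, as had 2533 of the 19558 genes. Mvd was at 71.1, 76.3 and 61.7 CPM untreated and at 96.5, 95.4 and 126 CPM after AOM-DSS, without overlap (log2 0.60 ± 0.24, adjusted p = 0.289), and Idi1 changed by 0.53 ± 0.24 on the log2 scale (adjusted p = 0.349). Hmgcs1 was at 399.7, 387 and 392 CPM and then 458, 524 and 557 CPM, with no overlap either (log2 0.38 ± 0.26, adjusted p = 0.57). Srebf2 lay the other way, at 353, 375 and 353 CPM and then at 309.9, 295 and 333 CPM, every treated library below every untreated one (log2 -0.21 ± 0.11, adjusted p = 0.452). Scd1, another stearoyl-CoA desaturase, was at 82.9, 77.3 and 144 CPM and then 58.1, 42.9 and 54.9 CPM (log2 -0.97 ± 0.32, adjusted p = 0.2), again all below. Scd2 had a log2 change of 0.69 ± 0.39 (adjusted p = 0.471) and Acly one of 0.00. The difference between the genotypes was tested as an interaction. No member passed it (0% of all genes did), and 3 had an unadjusted p under 0.05, as had 3088 of all genes. The DESeq2 fit called 3, with its share of all genes not printed here. Srebf2 came nearest, with a log2 change in Smox minus that in WT of -0.70 ± 0.16 (adjusted p = 0.0524). The values of Fasn (-0.95), Acaca (-0.72), Sqle (-0.65), Hmgcs1 (-0.13), Scd2 (-0.25) and Acly (-0.31) had adjusted p of 0.0881 or more.

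With spermidine on both sides, AOM-DSS against spermidine alone again put all 21 cholesterol genes higher in WT mice (median log2 change 0.65), and 7 of 28 members rose where 1.91% of all genes were called and 0.435% rose. They were Acat2, Mvk, Mvd, Fdps, Nsdhl, Acaca and Fasn. In 18 of the 21 cholesterol and 6 of the 7 fatty acid genes every AOM-DSS library lay above every spermidine library, as was so for 17.3% of all genes tested. Acat2 was at 58.9, 55.7 and 50.2 CPM with spermidine and 134, 118 and 93.3 CPM with both (2.10-fold higher, log2 1.07 ± 0.23, adjusted p = 0.0209). Acaca was at 68.5, 75.7 and 58.6 CPM and 146, 128 and 122 CPM (1.95-fold higher, log2 0.96 ± 0.18, adjusted p = 0.0125) and Fasn at 177, 225 and 183 CPM and 454, 346 and 311 CPM (1.90-fold higher, log2 0.92 ± 0.20, adjusted p = 0.0234). The AOM-DSS libraries were thus clear of the spermidine libraries for all 3 of these genes.

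Mvd rose 1.96-fold (adjusted p = 0.0395), Fdps 1.84-fold (adjusted p = 0.0432), Nsdhl, a sterol dehydrogenase, 1.58-fold (adjusted p = 0.0377) and Mvk 1.57-fold (adjusted p = 0.0499). Scd2 had the largest fitted change of the fatty acid genes, from 997, 1238 and 899 CPM to 2558, 2743 and 2346 CPM, and did not pass the test (log2 1.29 ± 0.39, adjusted p = 0.086). Hmgcs1 (log2 0.85), Srebf2 (0.34) and Acly (0.94) did not pass either (adjusted p of 0.086 or more). Leaving out WT spermidine replicate 1 or 2 left 2 of the calls. Leaving out its replicate 3 or any of the 3 AOM-DSS spermidine libraries left 0. Over those fits the share of all genes called moved from 0% to 1.79%. Other settings also moved the count, to 3 with RLE scaling or with no filter on low counts, to 12 without the 2 atypical libraries or with DESeq2, and to 18 with only these groups in the fit. The shares of all genes called with these settings are not printed here. In Smox mice 19 of 21 cholesterol genes were higher (median 0.30) and no member was called by edgeR, where 0.0205% of all genes were. DESeq2 called 2, with its share of all genes not printed here. Of the 28 members, 7 had an unadjusted p under 0.05, as had 3193 of the 19558 genes. Fasn there was at 133, 189 and 164 CPM with spermidine and 429, 287 and 288 CPM with both without overlap (log2 1.05 ± 0.20, adjusted p = 0.0836). The log2 changes of Insig1 (0.80), Tm7sf2 (0.75), Acaca (0.51), Srebf2 (0.15), Hmgcs1 (0.23), Scd2 (0.43) and Acly (0.32) had adjusted p of 0.135 or more.

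**Figure D2:**
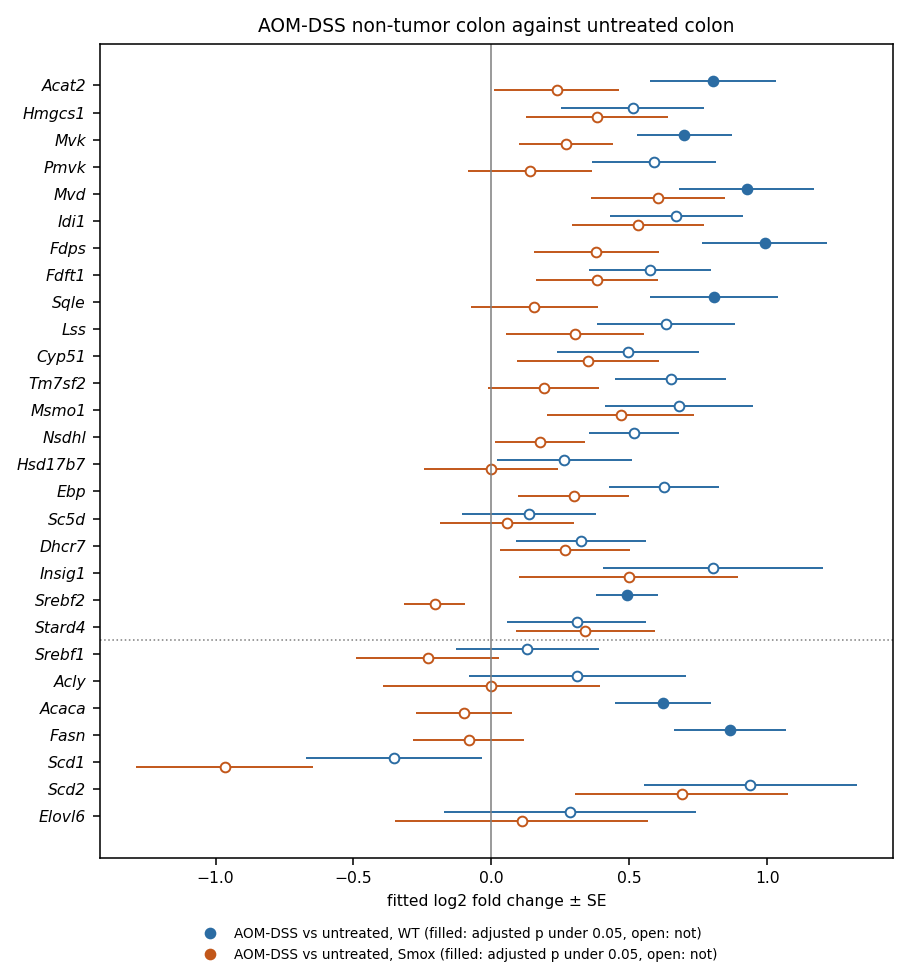
Fitted log2 fold change of each of the 28 members after AOM-DSS in WT and in Smox mice, with its SE as a bar, filled where the adjusted p was under 0.05. In WT 27 of 28 members lie above 0 and 8 are called, and in Smox 22 of 28 lie above 0 and none is called.

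Tumors were compared with non-tumor colon of mice that had the same genotype and treatment. The WT non-tumor libraries are also those of the comparison with spermidine alone, and the Smox ones those of the AOM-DSS comparison. In WT mice given AOM-DSS with spermidine, 19 of 21 cholesterol genes and 5 of 7 fatty acid genes were lower in tumors. Fasn was among the 2 fatty acid genes that were higher. Of the 28 members 10 fell and 1 rose, where 34.4% of all genes were called, 17.5% falling and 16.9% rising, so that the share of the 21 cholesterol genes that fell (9, or 42.9%) was above that of all genes and that of the whole module (39.3% called) near it. The median log2 change was -0.45 over the cholesterol genes, -0.39 over the fatty acid genes and 0.01 over all genes. The fallen members lay in both stretches of the route, 3 of 8 enzymes up to squalene (Hmgcs1, Mvk and Idi1) and 5 of 10 after it (Sqle, Lss, Msmo1, Ebp and Dhcr7), with Stard4 and, in the fatty acid branch, Acly.

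Stard4, the cholesterol carrier, fell most, from 283, 333 and 266 CPM in non-tumor colon to 80.4, 160.1 and 115 CPM in tumors (2.48-fold lower, log2 -1.31 ± 0.25, adjusted p = 0.000874). Dhcr7, which makes the last step to cholesterol (ENSMUSG00000058454.15, chromosome 7, 143823145 to 143848410, GRCm38), fell from 153, 169.5 and 149 CPM to 54.5, 94.1 and 72.1 CPM (2.14-fold lower, log2 -1.10 ± 0.24, adjusted p = 0.00184). Msmo1 (ENSMUSG00000031604.10, chromosome 8, 64718139 to 64733792) fell from 265, 296 and 198 CPM to 93.1, 144 and 124 CPM (2.10-fold lower, log2 -1.07 ± 0.27, adjusted p = 0.00482). In all 3 genes every tumor lay below every non-tumor library. Ebp, a sterol isomerase, fell from 85.2, 100.4 and 87.9 CPM to 43.2, 58.3 and 50.2 CPM (1.80-fold lower, log2 -0.85 ± 0.20, adjusted p = 0.00318). Lss was at 123, 112 and 61.3 CPM and 40.2, 63.3 and 53.9 CPM (1.88-fold lower, log2 -0.91 ± 0.25, adjusted p = 0.00839), and Acly at 767, 649 and 753 CPM and 242, 374 and 274 CPM (2.44-fold lower, log2 -1.28 ± 0.40, adjusted p = 0.0173). Of these, Lss had 1 tumor library above its lowest non-tumor library and Acly and Ebp had none. Hmgcs1 (1.63-fold lower, adjusted p = 0.0393), Mvk (1.48-fold lower, adjusted p = 0.0146), Idi1 (1.58-fold lower, adjusted p = 0.038) and Sqle (1.63-fold lower, adjusted p = 0.0228) fell by smaller factors.

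Fasn (ENSMUSG00000025153.9, chromosome 11, 120805846 to 120824547) went the other way, from 454, 346 and 311 CPM to 621, 539 and 675 CPM, all tumors above all non-tumor libraries (1.65-fold higher, log2 0.73 ± 0.20, adjusted p = 0.0089). Srebf1 (ENSMUSG00000020538.15, chromosome 11, 60199089 to 60222581) was at 227, 208 and 177 CPM and then 304, 305 and 254 CPM, also without overlap, and did not pass the test (log2 0.50 ± 0.26, adjusted p = 0.143). Srebf2 (ENSMUSG00000022463.8, chromosome 15, 82147181 to 82205379) was at 427, 392 and 373 CPM and 361, 400.5 and 405 CPM (log2 -0.03 ± 0.11, adjusted p = 0.846). Scd2 was lower in every tumor and did not pass (log2 -0.72 ± 0.39, adjusted p = 0.153).

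In Smox mice given AOM-DSS, 4 members rose in tumors and 2 fell, where 24.6% of all genes were called, 11.4% rising and 13.2% falling. At 21.4% the share of called members was close to that of all genes. Fatty acid genes rose most. Srebf1 was at 142, 134 and 152 CPM in non-tumor colon and 319, 292 and 297 CPM in tumors (2.12-fold higher, log2 1.08 ± 0.26, adjusted p = 0.00872). Fasn was at 283, 234 and 267 CPM and 540.5, 528 and 375 CPM (1.84-fold higher, log2 0.88 ± 0.20, adjusted p = 0.00727), and Scd1 (ENSMUSG00000037071.3, chromosome 19, 44394455 to 44407879) at 58.1, 42.9 and 54.9 CPM and 124, 124 and 142 CPM (2.50-fold higher, log2 1.32 ± 0.32, adjusted p = 0.00901). Tumors and non-tumor colon did not overlap in any of these 3 genes.

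Srebf2 rose from 309.9, 295 and 333 CPM to 396, 368 and 409 CPM (1.25-fold higher, log2 0.32 ± 0.11, adjusted p = 0.0389). Stard4 fell from 253, 221 and 265 CPM to 124, 121 and 199 CPM (1.66-fold lower, log2 -0.73 ± 0.25, adjusted p = 0.0377) and Ebp from 83.6, 71.2 and 97.5 CPM to 47.1, 46.0 and 71.9 CPM (1.53-fold lower, log2 -0.61 ± 0.20, adjusted p = 0.0312), with tumor replicate 3 the highest tumor library in both and, for Ebp, above the lowest non-tumor library. Dhcr7 was at 118, 137 and 145 CPM and 74.0, 78.8 and 127 CPM (log2 -0.51 ± 0.24, adjusted p = 0.109) and Msmo1 at 187, 218 and 270.0 CPM and 119, 125 and 203 CPM (log2 -0.59 ± 0.27, adjusted p = 0.103), again with replicate 3 highest, and neither passed the test. Elovl6, which lengthens fatty acids, had the other large change, 89.4, 91.1 and 99.8 CPM and 44.9, 36.8 and 37.3 CPM without overlap (log2 -1.24 ± 0.46, adjusted p = 0.0539), and did not pass. The log2 changes of Hmgcs1 (-0.21), Scd2 (0.04) and Acly (0.14) had adjusted p of 0.582 or more.

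Some of the tumor calls held in every fit with 1 library left out. In WT these were 5 of 11, Msmo1, Ebp, Dhcr7, Stard4 and Fasn, and in Smox 3 of 6, Srebf1, Fasn and Scd1. In WT, 6 members were called without non-tumor replicate 1, 7 without non-tumor replicate 2, 5 without tumor replicate 1 and 6 without tumor replicate 3. In Smox, 3 were called without non-tumor replicate 1, without tumor replicate 1 or without tumor replicate 2. Without tumor replicate 3, 7 were called, of which 4 were cholesterol genes lower in tumors. Over the fits with 1 library left out, the share of all genes called moved from 22% to 31% in WT and from 4.93% to 30.4% in Smox. With only the compared groups in the fit, the Smox calls of Ebp (adjusted p = 0.0922), Srebf2 (0.0804) and Stard4 (0.0627) and the WT call of Idi1 (0.0577) were lost by edgeR. With no filter on low counts, Ebp (0.0643), Srebf2 (0.0785) and Stard4 (0.0688) were lost in Smox and Hmgcs1 (0.0566) and Idi1 (0.0608) in WT. Cell markers moved with the tumors. Colonocyte genes summed to 2307 to 3521 CPM in WT non-tumor colon and 499 to 567 CPM in WT tumors, and to 2838 to 3654 CPM and 394 to 593 CPM in Smox, while smooth muscle genes went from 1128 to 1432 CPM down to 49.4 to 143 CPM in WT and from 968 to 4488 CPM to 92.4 to 1082 CPM in Smox. Wnt target genes went from 101 to 155 CPM up to 1291 to 3053 CPM in WT and from 61.9 to 84.9 CPM to 256 to 2259 CPM in Smox. Epithelial genes themselves summed to 16010 to 17630 CPM in WT non-tumor colon and to 10740 to 12920 CPM in WT tumors (5 of 8 fell and 1 rose, median log2 change -0.57), and to 13020 to 19040 CPM and then 11010 to 15050 CPM in Smox (1 fell and 1 rose, median -0.32). Of 7 goblet cell genes, 4 fell in WT and 5 in Smox tumors, and of 5 neutrophil genes 4 rose in WT and 0 in Smox. Of 6 distal hindgut genes 4 rose in Smox tumors and 0 in WT ones. The part of these markers in the lipid genes' changes was not tested.

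Between the tumor groups, Smox against WT with spermidine, no member was called by edgeR or by DESeq2 and none had an unadjusted p under 0.05, while 0.0614% of all genes were called by edgeR and 1098 had such a p. The mean level of Stard4 was 118 ± 40.0 CPM in WT tumors (SD, n = 3) and 148 ± 44.1 CPM in Smox tumors, that of Dhcr7 at 73.6 ± 19.8 and 93.3 ± 29.4 CPM, Fasn at 612 ± 68.4 and 481 ± 92.2 CPM, and Srebf1 at 288 ± 29.4 and 303 ± 14.3 CPM. The largest fitted log2 differences by branch were those of Lss (0.44), Dhcr7 (0.34), Fasn (-0.35) and Acly (0.30), with adjusted p of 0.979 or more.

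**Figure D3:**
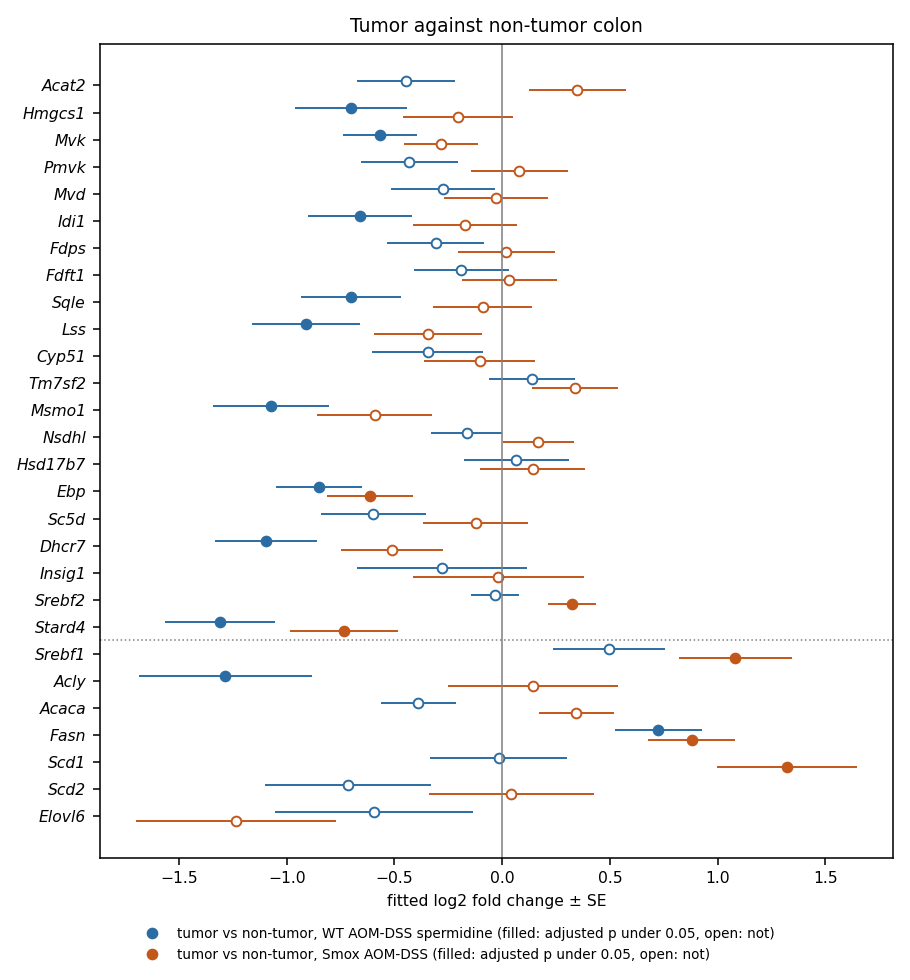
Fitted log2 fold change of each member in tumors against non-tumor colon, in WT mice given AOM-DSS with spermidine and in Smox mice given AOM-DSS, with its SE as a bar, filled where the adjusted p was under 0.05. Stard4 (-1.31 in WT, -0.73 in Smox) and Dhcr7 (-1.10 and -0.51) lie below 0, and Fasn (0.73 and 0.88) and Srebf1 (0.50 and 1.08) above it. These do not stand for their branches. In WT, 19 of 21 cholesterol and 5 of 7 fatty acid genes lie below 0. In Smox, 13 of 21 and 1 of 7 do.

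Other genes of the same circuits were counted as lists. Among 11 genes of sterol uptake, efflux and LXR, 3 rose and 1 fell in the tumors of each genotype. These counts, like those of the lists that follow, stand beside 34.4% of all genes called in WT tumors and 24.6% in Smox tumors, and whether a list differed from all genes was not tested. The cholesterol exporter Abca1 rose 7.61-fold in WT (adjusted p = 0.00385) and 5.03-fold in Smox (adjusted p = 0.0208). Its relative Abcg1 rose 4.24-fold (adjusted p = 0.0139) and 4.07-fold (adjusted p = 0.0239). Npc1, which moves cholesterol out of lysosomes, rose 1.66-fold (adjusted p = 0.0262) and 1.86-fold (adjusted p = 0.0158), while Nr1h3, encoding LXR alpha, fell 2.26-fold (adjusted p = 0.00877) and 2.03-fold (adjusted p = 0.0277). Abca1 and Abcg1 are expressed in macrophages, whose genes summed to 65.9 to 90.4 CPM in WT tumors against 13.3 to 44.7 CPM in WT non-tumor colon, and to 59.5 to 107 CPM in Smox tumors against 63.5 to 91.6 CPM. The part of macrophages in these rises was not tested.

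Of 4 genes that process SREBP, only Insig2 was called in tumors, where it fell 1.45-fold in WT (adjusted p = 0.0207) and 1.54-fold in Smox (adjusted p = 0.0149). Of 8 genes that use the isoprenoid units, 2 fell in WT and 3 in Smox tumors, where 17.5% and 13.2% of all genes fell. Pdss1, which builds the tail of coenzyme Q, fell 2.65-fold in WT (adjusted p = 0.000836) and 2.81-fold in Smox (adjusted p = 0.0038), its partner Pdss2 1.92-fold (adjusted p = 0.00474) and 2.11-fold (adjusted p = 0.0061), and Nus1, of dolichol synthesis, 1.57-fold in Smox (adjusted p = 0.0471). Pdss1 had risen 1.90-fold in WT non-tumor colon after AOM-DSS (adjusted p = 0.0443).

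Of 15 further genes of fatty acid and glyceride handling, 3 rose and 2 fell in WT tumors and 2 rose and 1 fell in Smox tumors, shares near or under those of all genes. The desaturase Fads1 rose in both, 3.04-fold (adjusted p = 0.00255) and 2.50-fold (adjusted p = 0.0149). In WT tumors Me1, malic enzyme, rose 3.81-fold and Dgat2, of triglyceride synthesis, 2.17-fold (adjusted p = 0.027 and 0.0318), and Acss2, which makes acetyl-CoA from acetate, fell 5.39-fold and Mlxipl, encoding ChREBP, 1.76-fold (adjusted p = 0.000769 and 0.0187). In Smox tumors the elongase Elovl5 rose 1.53-fold and Acacb, an acetyl-CoA carboxylase, fell 3.25-fold (adjusted p = 0.029 and 0.0318). In WT non-tumor colon Me1 fell 4.67-fold and Mlxipl 1.81-fold after AOM-DSS (adjusted p = 0.0466 and 0.0498), and Me1 fell 9.52-fold from spermidine alone to AOM-DSS with spermidine (adjusted p = 0.0202).

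**Figure D4:**
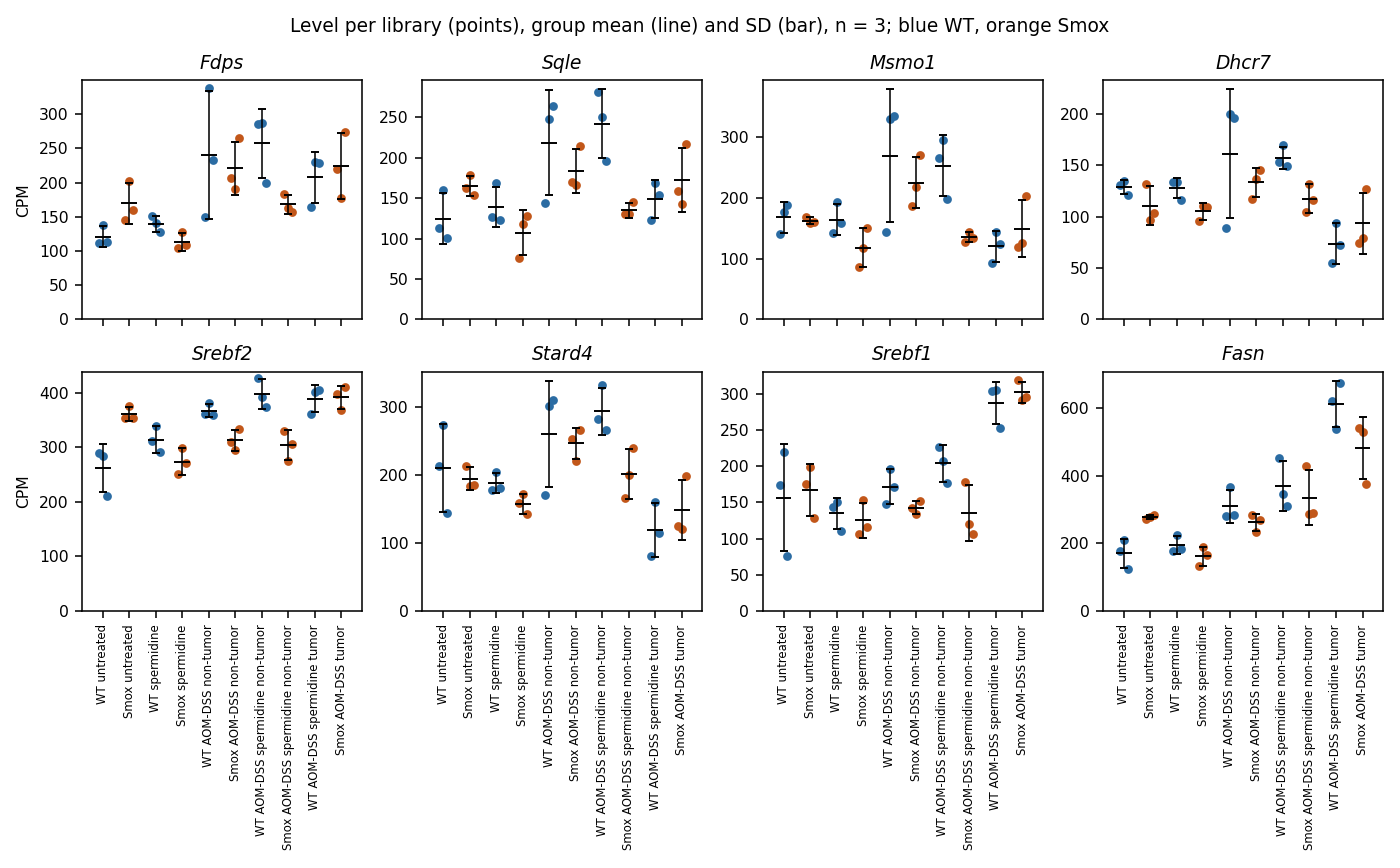
CPM of 8 members in each library by group (blue WT, orange Smox), with the group mean as a line and its SD as a bar (n = 3). Stard4 and Dhcr7 have their lowest group means in the tumors, while Srebf1 and Fasn are highest there (288 ± 29.4 and 612 ± 68.4 CPM in WT tumors).

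Untreated colon labelled Smox was compared with untreated WT colon to see what the deletion did on its own, with the same WT libraries as in the AOM-DSS and spermidine comparisons of WT. Smox RNA itself was at 26.7, 25.1 and 27.6 CPM in the WT libraries and at 28.7, 36.2 and 27.4 CPM in those labelled Smox, so here it was not lower in the latter (log2 0.22 ± 0.24, adjusted p = 0.62). Srebf2 and Fasn were higher in the libraries labelled Smox, 2 of 28 members (7.1%), where 5.95% of all genes were called and 2.63% rose, a share near that of all genes. Srebf2 had 289, 284 and 210.4 CPM in WT, and the libraries labelled Smox, at 353, 375 and 353 CPM, all lay above (1.38-fold higher, log2 0.47 ± 0.11, adjusted p = 0.0242). Fasn had 177, 209.6 and 123 CPM in WT libraries and 271, 277 and 283 CPM in those labelled Smox, again without overlap (1.63-fold higher, log2 0.70 ± 0.20, adjusted p = 0.0425). The median log2 difference was 0.22 over the cholesterol genes and 0.10 over the fatty acid genes. Hmgcs1 lay the other way, at 414, 491 and 535 CPM in WT libraries and 399.7, 387 and 392 CPM in those labelled Smox, without overlap (log2 -0.29 ± 0.26, adjusted p = 0.525). The log2 differences of Fdps (0.49), Acaca (0.40), Scd2 (-0.14) and Acly (-0.29) had adjusted p of 0.163 or more. In the other lists Scap, which carries SREBP to the Golgi, rose 1.39-fold (adjusted p = 0.0236) and the elongase Elovl1 1.53-fold (adjusted p = 0.0353). Leaving out 1 WT library gave 1, 3 and 0 calls (replicates 1, 2 and 3 in turn). Leaving out 1 Smox library gave 1, 0 and 0. Over these fits 0.0299% to 6.74% of all genes were called. A fit of only these groups, or one without the 2 atypical libraries, also called none (0.00564% and 0.161% of all genes were called). The fit with no filter on low counts called 1 member and 1.91% of all genes. Smooth muscle genes summed to 5453 to 8352 CPM in WT and 1260 to 3691 CPM in Smox, and goblet cell genes to 2500 to 5094 CPM and 6970 to 9637 CPM. Squamous epithelium genes reached 3035 CPM in 1 Smox library. The part of these cells was not tested.

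With spermidine in both genotypes, all 28 members were lower in Smox, with a median log2 difference of -0.26 over the cholesterol genes. No member was called by edgeR or DESeq2 (0.0818% of all genes were by edgeR), and 1 of 28 had an unadjusted p under 0.05, as had 1882 of the 19558 genes. The member was Scd1, with 66.0, 119 and 132 CPM for WT and 57.3, 63.5 and 55.1 CPM for Smox (log2 -0.85 ± 0.32, adjusted p = 0.38). The log2 differences of Msmo1 (-0.48), Hmgcs1 (-0.47), Srebf2 (-0.20), Elovl6 (-0.44), Scd2 (-0.29) and Acly (-0.22) had adjusted p of 0.588 or more. After AOM-DSS alone 25 of 28 members were lower in Smox, no member was called by edgeR or DESeq2 (0.0665% of all genes were by edgeR), and 2 had an unadjusted p under 0.05, as had 1640 of all genes. There the values were -0.64 for Insig1, -0.42 for Hmgcs1, -0.23 for Srebf2, -0.69 for Scd1, -0.61 for Acly and -0.39 for Scd2, with adjusted p of 0.583 or more.

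The genotypes lay furthest apart in non-tumor colon when spermidine was given during AOM-DSS. All 21 cholesterol genes were lower in Smox, with a median log2 difference of -0.63 against 0.05 for all genes, and in 16 of them every Smox library lay below every WT library, against 8.15% of all genes tested. Still no member passed the adjusted test by edgeR, where 0.251% of all genes did. An unadjusted p under 0.05 was found for 16 of the 21 cholesterol and 5 of the 7 fatty acid genes, against 2773 of the 19558 genes tested. DESeq2 called 8 members, with its share of all genes not printed here. Hmgcs1 (ENSMUSG00000093930.2, chromosome 13, 119690379 to 119708260) had 769, 716 and 500.2 CPM in WT libraries and 303, 305 and 322 CPM in Smox ones (2.13-fold lower, log2 -1.09 ± 0.26, adjusted p = 0.0679). Msmo1 had 265, 296 and 198 CPM in WT libraries and 128, 144 and 135 CPM in Smox ones (1.87-fold lower, log2 -0.90 ± 0.27, adjusted p = 0.122), and Sqle 281, 249.8 and 196 CPM in WT libraries and 129.7, 129.9 and 146 CPM in Smox ones (1.79-fold lower, log2 -0.84 ± 0.23, adjusted p = 0.103). WT and Smox libraries were apart in all 3 genes.

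Srebf2 had 427, 392 and 373 CPM in WT libraries and 330.3, 275 and 305 CPM in Smox ones, also apart (log2 -0.39 ± 0.11, adjusted p = 0.112). In the fatty acid branch Scd1 had 148, 168 and 140.5 CPM in WT libraries and 85.0, 45.5 and 42.7 CPM in Smox ones (2.63-fold lower, log2 -1.40 ± 0.32, adjusted p = 0.0662), Scd2 2558, 2743 and 2346 CPM in WT libraries and 1511, 1345 and 600.4 CPM in Smox ones (log2 -1.15 ± 0.39, adjusted p = 0.171) and Acly 767, 649 and 753 CPM in WT libraries and 360.4, 556 and 289 CPM in Smox ones (log2 -0.85 ± 0.40, adjusted p = 0.334), each with the genotypes apart. Fasn was an exception, at 454, 346 and 311 CPM in WT libraries and 429, 287 and 288 CPM in Smox ones with overlap (log2 -0.14 ± 0.20, adjusted p = 0.79). Me1, outside the module, was the 1 called gene of the other lists, higher in Smox 9.02-fold (adjusted p = 0.0493). Smox replicate 1 was the Wnt-high library, and without it 1 member was called, as was 1 without Smox replicate 2. Distal hindgut Hox genes summed to 743 to 957 CPM in these WT libraries. In Smox replicates 1, 2 and 3 they summed to 337, 591 and 67.3 CPM. Smox replicate 3 also had colonocyte genes at 13860 CPM, where the other Smox libraries had 1193 and 3894 CPM. Its Scd2 and Acly were the lowest of its group. Its mean log2 CPM of the cholesterol genes (6.53) lay beside those of replicates 1 and 2 (6.57 and 6.54). It was not among the 2 atypical libraries left out together. The part of the position sampled along the colon was not tested.

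Spermidine on its own gave no called member in WT. The median log2 change was -0.01 over the cholesterol and -0.02 over the fatty acid genes, no member was called by edgeR (0.00511% of all genes were) or by DESeq2, and 1 of 28 had an unadjusted p under 0.05, as had 3152 of the 19558 genes. Insig1 was at 92.3, 172 and 125 CPM untreated and 58.5, 80.6 and 101 CPM with spermidine (log2 -0.70 ± 0.40, adjusted p = 0.402), and Hmgcs1 at 414, 491 and 535 CPM and then 297, 419.8 and 381 CPM (log2 -0.39 ± 0.26, adjusted p = 0.483). Srebf2 was at 289, 284 and 210.4 CPM and then 312, 339 and 291 CPM, without overlap (log2 0.27 ± 0.11, adjusted p = 0.239). The log2 changes of Elovl6 (0.30), Scd2 (-0.21) and Acly (-0.11) did not pass either.

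In Smox mice all 28 members were lower with spermidine, with a median log2 change of -0.47 over the cholesterol and -0.42 over the fatty acid genes against 0.01 for all genes. In 19 of the 21 cholesterol genes every spermidine library lay below every untreated one, against 9.5% of all genes tested. None was called by edgeR, where 0% of all genes were, and the smallest adjusted p of any gene in this comparison was 0.498. An unadjusted p under 0.05 was found for 13 of 28 members against 1825 of the 19558 genes tested. DESeq2 called 2 members, and 0.148% of all 31023 genes. Srebf2 was at 353, 375 and 353 CPM untreated and 251, 299 and 270.0 CPM with spermidine (log2 -0.40 ± 0.11, adjusted p = 0.498). Fasn was at 271, 277 and 283 CPM and then 133, 189 and 164 CPM (log2 -0.78 ± 0.20, adjusted p = 0.498), and Scd1 at 82.9, 77.3 and 144 CPM and then 57.3, 63.5 and 55.1 CPM (log2 -0.79 ± 0.32, adjusted p = 0.498). All 3 were without overlap. The log2 changes of Insig1 (-0.80), Hsd17b7, a sterol reductase (-0.69), Hmgcs1 (-0.57), Scd2 (-0.36) and Acly (-0.03) did not pass either. Smox spermidine replicate 1, with the skeletal muscle RNA, was the lowest of the 30 libraries for Hmgcs1, Idi1, Fdps, Mvd, Insig1, Fdft1, Sqle, Msmo1 and Nsdhl, and its part in the lower values was not tested.

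The response to spermidine differed between genotypes for 1 member. The log2 change of Srebf2 in Smox minus that in WT was -0.67 ± 0.16 (adjusted p = 0.0319), where 2.91% of all genes were called in this interaction and 0.726% in this direction. At 1 of 28 (3.6%), the members' share was near that of all genes. Mean levels were 261 ± 43.8 CPM (SD, n = 3) in untreated mice and 314 ± 24.2 CPM in other mice given spermidine for WT. For Smox they were 360.4 ± 12.8 CPM and 273 ± 24.2 CPM. All 21 cholesterol genes had a negative difference, with a median of -0.48 against 0.05 for all genes, and 5 of 28 members had an unadjusted p under 0.05, as had 3977 of the 19558 genes. Fasn stood at -0.97 ± 0.28 (adjusted p = 0.0612). Fdps (-0.79), Sqle (-0.78), Hmgcs1 (-0.18), Scd1 (-0.78), Scd2 (-0.15) and Acly (0.07) had adjusted p of 0.159 or more. The elongase Elovl1 was called as well, at -0.94 ± 0.23 (adjusted p = 0.0367). Srebf2 kept its call in 5 of the 12 fits that left out 1 library, and lost it when replicate 3 of WT untreated, 2 or 3 of Smox untreated, 1 or 2 of WT spermidine, or 1 or 3 of Smox spermidine was left out (adjusted p = 0.0643 to 0.12). It was also lost with only these groups in the fit (0.0692). Cell markers had their own differences in this interaction, with a median log2 value of -0.57 over epithelial genes (0 of 8 called), -1.10 over goblet cell genes (1 of 7 called, lower) and 3.55 over genes of glia and Schwann cells (1 of 6 called, higher). It was 2.15 over smooth muscle, 6.41 over skeletal muscle and -5.04 over neutrophil genes, with none called. The part of these cells in the lipid genes' values was not tested.

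Spermidine given during AOM-DSS left WT non-tumor colon with 13 of 21 cholesterol genes higher (median log2 change 0.10), and Smox colon with 20 of 21 lower (median -0.46). No member was called by edgeR or DESeq2 in either genotype (0% of all genes by edgeR in both), and an unadjusted p under 0.05 was found for 2 and 8 of the 28, and for 1109 and 2676 of the 19558 genes. In WT, Scd1 was at 53.9, 116 and 82.0 CPM without and 148, 168 and 140.5 CPM with spermidine, without overlap (log2 0.86 ± 0.32, adjusted p = 0.85). The log2 changes of Acly (0.53), Insig1 (-0.56), Acat2 (0.30), Hmgcs1 (-0.05), Srebf2 (0.12) and Scd2 (0.14) had adjusted p of 0.908 or more. In Smox, Msmo1 was at 187, 218 and 270.0 CPM without and 128, 144 and 135 CPM with spermidine (log2 -0.73 ± 0.27, adjusted p = 0.259) and Hmgcs1 at 458, 524 and 557 CPM and then 303, 305 and 322 CPM (log2 -0.73 ± 0.26, adjusted p = 0.246), both without overlap. Fasn (0.36), Scd2 (-0.62), Srebf2 (-0.04) and Acly (0.28) had adjusted p of 0.426 or more. The interaction called no member by edgeR or DESeq2 (0% of all genes by edgeR), and 2 of 28 had an unadjusted p under 0.05, as had 820 of all genes. The largest values were those of Lss (-0.72), Hsd17b7 (-0.70), Scd2 (-0.76) and Scd1 (-0.70), with Hmgcs1 at -0.68, Srebf2 at -0.16 and Acly at -0.24.

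**Figure D5:**
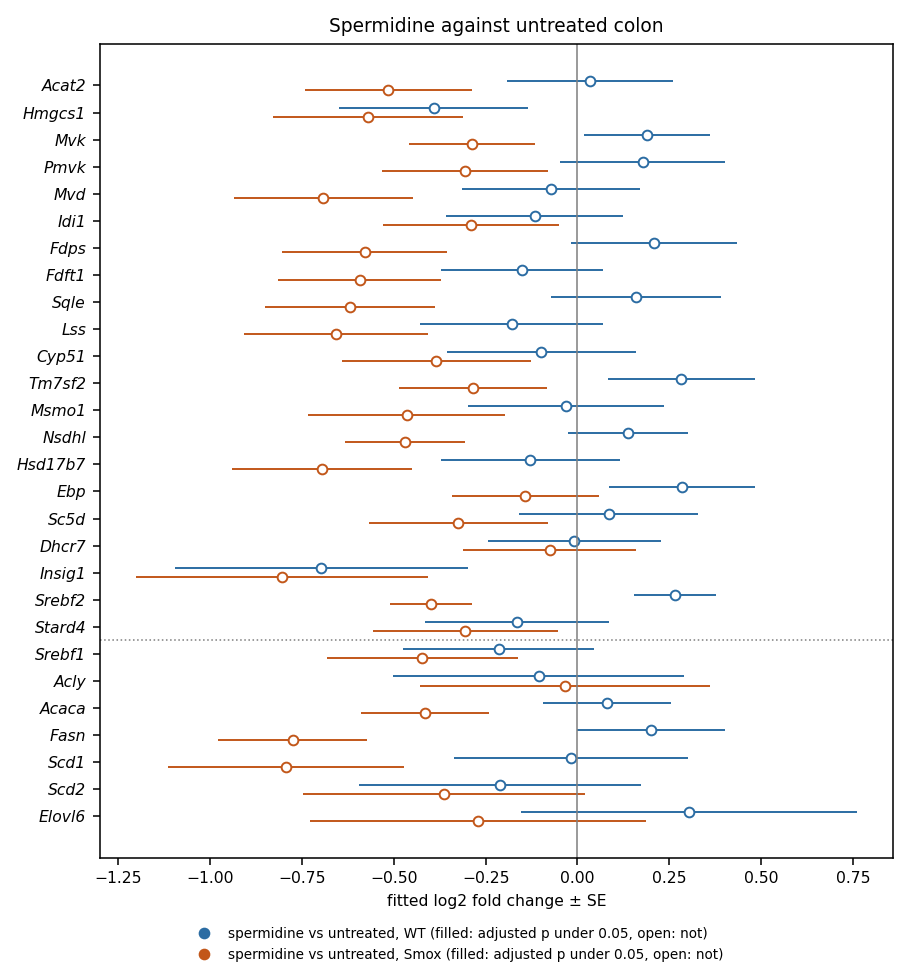
Fitted log2 fold change of each member with spermidine against without it in WT and in Smox mice, with its SE as a bar, filled where the adjusted p was under 0.05. No point is filled, and all 28 Smox points lie below 0 (median -0.42) where 13 of 28 WT points lie above it.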

How the data were processed

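RNA of 30 colon libraries was sequenced in 10 groups of 3. Per the submitters' processing notes, the authors used fastp, Salmon and DESeq2 with GRCm38. Their versions and settings are not given in the sources used here. Libraries were made with a directional kit per the labels' protocols, and whether the counting used strand is not stated. The deposited table holds estimated counts per gene (expected counts), all whole numbers as deposited, which were used without rounding. Library totals were 33060607 to 81011304 counts. Groups came from the labels. The labels give no replicate numbers, so replicates were numbered in accession order. All 10 groups entered 1 edgeR 4.0.16 quasi-likelihood fit (R 4.3.3, TMM scaling, genes kept by filterByExpr at a count of 10 or more and a total of 15 or more, robust), with 20 residual degrees of freedom and 18 comparisons. The filter removed 11465 of 31023 genes, at most 0.0365% of a library's counts. Every adjusted p is from that edgeR test with Benjamini-Hochberg adjustment over the 19558 genes tested, called under 0.05, with p-values not adjusted over the 18 comparisons. SE is the log2 fold change divided by the square root of F. CPM per kb used GENCODE vM21 exon lengths, in which each exon base of any transcript of the gene was counted once.

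The members and the lists were chosen with earlier results of these data known. The genes named are every called member and, in each branch, the 2 members with the largest change and the 2 with the highest mean CPM (Hmgcs1 and Srebf2, Scd2 and Acly), and other pathway genes where called. Members named beyond that rule were chosen after their values were seen. Alternatives were RLE scaling, leaving the low-count filter off or setting it to 1 CPM in 3 libraries, only the groups compared, leaving out each library, leaving out 2 atypical libraries and DESeq2 1.42.0. The fit was tested on simulated data in which 200 genes were changed in 1 group and all others kept 1 mean in every group. Of 2-fold changes it recovered 33% for AOM-DSS in WT and 35% for tumors in WT. Among genes above 10 CPM these were 56.4% and 66%. A member that was not called can thus still have changed by such a factor. In the data 34.4% of all genes were called in WT tumors, so recovery there can differ from the simulated one. Tm7sf2 shares 532 exon bases with Vps51 on the same strand and Fdps 1124 with Gm43738 (at most 10 counts in a library), Acat2 has the near copy Acat3, and Fdft1 and Srebf1 overlap genes on the other strand, so their counts are less certain.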

Additional observations from a re-analysis of the deposited data

Results flagged for a closer look

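The response of Srebf2, the gene of SREBP-2, to spermidine differed between genotypes by the interaction term, with a log2 change in Smox minus that in WT of -0.67 (SE 0.16, adjusted p = 0.0319 by edgeR's quasi-likelihood test). WT libraries were at 289, 284 and 210.4 CPM untreated and 312, 339 and 291 CPM with spermidine, every spermidine library above every untreated one. Smox libraries were at 353, 375 and 353 CPM and 251, 299 and 270.0 CPM, every spermidine library below every untreated one. The lowest WT untreated value is that of the library with skeletal muscle RNA and low distal hindgut Hox RNA. Without that library the value was -0.59 with an adjusted p of 0.0643. The call was kept in 5 of the 12 fits that left out 1 library. It was lost with only these groups in the fit (0.0692) and without the 2 atypical libraries (0.0553). At 1 of 28 (3.6%), the members' share was near the 2.91% of all genes called in this interaction.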

How the results depend on the processing

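No paired analysis was possible because the labels give no replicate number shared between groups. With 1 library left out, the number of called members ranged from 0 to 3 for Smox against WT untreated, 0 to 18 for AOM-DSS in WT, 0 to 2 for AOM-DSS with spermidine against spermidine in WT and 3 to 7 for tumors in Smox. It ranged from 5 to 11 for tumors in WT, from 0 to 3 for the spermidine interaction and for the AOM-DSS interaction, and from 0 to 1 for Smox against WT in AOM-DSS with spermidine and for AOM-DSS with spermidine against spermidine in Smox. It was 0 in every such fit of the other 9 comparisons. For AOM-DSS in WT the share of all genes called moved from 0.0452% to 9.68% over the same fits. It moved from 22% to 31% for tumors in WT and from 4.93% to 30.4% for tumors in Smox. For AOM-DSS with spermidine against spermidine it moved from 0% to 1.79% in WT and from 0% to 0.593% in Smox. The spermidine interaction had 0% to 4.28% and the AOM-DSS interaction 0% to 2.29%. Smox against WT had 0.0299% to 6.74% untreated and 0.0199% to 2.21% in AOM-DSS with spermidine. Where a fit had 2 libraries in a group, the spread was shared with the other groups.

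With no filter on low counts, 1 member was called for Smox against WT untreated, 5 for AOM-DSS in WT, 3 for tumors in Smox and 3 for AOM-DSS with spermidine against spermidine in WT. Of all genes, 1.91% were called in the first of these and 1.86% in the second. Without the 2 atypical libraries (replicate 3 of WT untreated and the Wnt-high Smox library) the counts were 0 for Smox against WT untreated, AOM-DSS in WT and the spermidine interaction, 2 for Smox against WT in AOM-DSS with spermidine and 12 for AOM-DSS with spermidine against spermidine in WT. With only the groups compared they were 0 in the first 3 of these and 18 in the last. Without the 2 atypical libraries, 0.161% of all genes were called for Smox against WT untreated and 0.287% for AOM-DSS in WT. With only the groups compared, these shares were 0.00564% and 0%. RLE scaling gave 3 for AOM-DSS with spermidine against spermidine in WT and 2 for the spermidine interaction. The filter of 1 CPM gave 1 for AOM-DSS with spermidine against spermidine in Smox and 1 for the AOM-DSS interaction. DESeq2 gave 2 for spermidine in Smox, 8 for Smox against WT in AOM-DSS with spermidine, 12 and 2 for AOM-DSS with spermidine against spermidine in WT and Smox, 2 for the spermidine interaction and 3 for the AOM-DSS interaction. DESeq2 called 0.148% of all 31023 genes for spermidine in Smox and 2.93% for spermidine in WT. By edgeR these shares were 0% and 0.00511% of the genes tested. For Smox against WT with spermidine DESeq2 called 0.725% of all genes, where edgeR called 0.0818%. For AOM-DSS in Smox the shares were 1.7% and 0.0767%. Where no DESeq2 share is printed, the share of all genes beside a DESeq2 count is that of edgeR. The DESeq2 count cannot be read against it. Where no share of all genes is printed for a setting, its count is no result about the members. The cause of the shifts in these counts was not tested.

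The log2 change with spermidine in WT was -0.21 for Srebf1 and 0.30 for Elovl6, and with 1 library left out it ranged from -0.49 to 0.14 for Srebf1 and from -0.016 to 1.17 for Elovl6. Each turned sign without WT untreated replicate 2, and neither was called. All 28 members passed the low-count filter, so depth did not keep any of them out of the test.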
